A study of Homo sapiens with 6 samples.

Results

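Numbered zinc finger genes are the human genes whose symbol is ZNF followed by a number, and most encode proteins with rows of C2H2 fingers, each a short loop that holds a zinc ion and reads bases of DNA. They were taken from a table of transcript 3' ends as every gene whose symbol was ZNF, a number and at most 1 letter. The rule found 176 of 9588 gene names, on 182 of 14686 regions, and where a gene had several regions the one with the highest mean over the libraries stands for it. Of the 176 genes, 66 lay on chromosome 19 and 110 on other chromosomes, with 22 on chromosome 16, 11 on chromosome 1 and 10 on chromosome 7. They made up 7.89% of the 836 gene names on chromosome 19 and 4.25% of the 518 on chromosome 16. Zinc finger genes with other symbols, such as the ZBTB, ZSCAN and KLF families, were not members.

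The study compared endoderm cells with the human embryonic stem cells (hESCs) they came from, the established line H9 at passage 51, and sequenced the 3' ends of polyadenylated RNA around the entry into S phase. The endoderm group had 6 days of activin A at 100 ng/ml, in medium that held 0% serum on the first day, 0.2% on the next and 2.0% from then on, and gave 1 library in G1 at 0 h, 1 in G1/S at 3 h and 1 in S at 6 h. The hESC group, at day 0 in medium conditioned on mouse embryonic fibroblasts, gave 1 library in G1 at 0 h, 1 in G1/S at 2 h and 1 in S at 3 h. Cell type, activin, serum, medium and days in culture changed together, so their parts cannot be told apart. How cells were brought into phase is not given in the sources used here, and no phase was repeated within a cell type. The fit used below takes a phase to act alike in both cell types, though the hours differ. Its p-values measure departures from this. Spread between libraries and phase responses particular to 1 cell type cannot be told apart in them. All libraries come from 1 line.

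Many numbered ZNF proteins carry a KRAB box at their N-terminal end. The KRAB box binds TRIM28 (KAP1), which brings in the histone methyltransferase SETDB1 and heterochromatin proteins, and in pluripotent cells this machinery keeps transposable elements silent. KRAB genes multiplied by tandem duplication and lie in long clusters on chromosome 19. ZNF proteins without a KRAB box are more mixed, with activators, corepressors, RNA-binding proteins and factors of ribosome assembly among them.

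Values are signal, the authors' reads per region divided by 1 constant per library. Depth at G1, G1/S and S was 5389666, 3205025 and 2502792 reads for endoderm, and 4972977, 4194957 and 6203079 reads for hESCs, so 1 read was worth 0.591 to 1.71 signal. Each region collects reads from the end of a transcript, so signal does not grow with gene length and was not divided by it. In bulk RNA, fewer cells of a type and less RNA per cell cannot be told apart. In endoderm, 7 of 7 definitive endoderm markers rose, 3 of 6 hESC markers fell (UTF1, DNMT3B and SOX2), and the other hESC markers, none past the threshold, differed by -0.01 (POU5F1), 0.41 (LIN28) and 0.98 (TDGF1) on the log2 scale. Markers listed for other fates moved as well. All 3 measured neuroectoderm markers and the 1 measured mesoderm marker, TWIST1, rose, trophoblast markers split into 1 higher and 2 lower of 3, and fibroblast markers into 1 higher and 1 lower of 3. The summed signal of the neuroectoderm markers was 566 to 882 in endoderm, against 78.6 to 113 in hESCs. Most of the endoderm sum was OTX2, at 369, 594 and 443 in G1, G1/S and S. The part of these markers in the ZNF results was not tested.

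The members differed by chromosome in what they encode and in how much RNA they gave. A protein was found for 173 of them, and a search with a pattern of the KRAB A box matched 42 of 65 on chromosome 19 (64.6%) and 27 of 108 on other chromosomes (25.0%). The pattern is short and strict, so a protein without a match, written below as having no KRAB-like pattern, may still hold a diverged box. The median number of C2H2 fingers was 9 on chromosome 19 and 7 elsewhere, the most was 33 in ZNF462, and 7 members, ZNF703 among them, had 0 by the finger pattern. Among chromosome 19 members, the median signal was 21.3 for the 42 KRAB-like genes and 170 for the 23 without the pattern. On other chromosomes it was 35.99 for the 27 KRAB-like genes and 59.1 for the 81 without the pattern. The GC content of the last 500 transcript bases moved with the same split, with a median of 45.2% in KRAB-like members and 53.6% in members with no KRAB-like pattern. Across all members the median signal was 40.6, against 75.9 over all gene names, and 52 members averaged under 20 signal.

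RefSeq promoter windows of 300 bases (250 before to 50 after the start, build GRCh38.p14) were matched for 148 of the 176 members. The GC box GGGCGG, searched on both strands, stood in 69.6% of member windows and in 44.6% of all 27305 windows. The ETS-type word CCGGAAGT stood in 18.9% of member windows and 4.44% of all windows, and the ZNF143-type word ACTACAA in 8.78% and 2.95%. The GATA-type word AGATAA stood in 3.38% of member windows and 10.5% of all windows, and the forkhead-type word TGTTTAC in 0.676% and 3.41%. Member windows had a median GC content of 64.3%, against 58.3% in all windows, and the part of composition in these shares was not tested. All windows also include genes with no region in these data, and shares over measured genes only were not taken. A match is a string of letters and not a shown site. The windows below, all read on the plus strand, belong to 4 members that changed between the cell types, and are shown for the words they hold. Capitals mark GGGCGG in ZNF48, CCGGAAGT and GGGCGG in ZNF646, TGTTTAC in ZNF589, and in ZNF331 the word TACATTTCCCAGA, the longest that stands there 3 times, looked for after the sequence was read.
ZNF48 promoter (chr16:30378062-30378361): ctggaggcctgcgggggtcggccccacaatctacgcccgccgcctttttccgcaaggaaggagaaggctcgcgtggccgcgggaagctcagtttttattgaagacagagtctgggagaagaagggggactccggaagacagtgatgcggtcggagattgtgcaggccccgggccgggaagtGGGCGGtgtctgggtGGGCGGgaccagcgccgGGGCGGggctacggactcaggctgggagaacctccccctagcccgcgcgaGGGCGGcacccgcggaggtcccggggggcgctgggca
ZNF646 promoter (chr16:31074172-31074471): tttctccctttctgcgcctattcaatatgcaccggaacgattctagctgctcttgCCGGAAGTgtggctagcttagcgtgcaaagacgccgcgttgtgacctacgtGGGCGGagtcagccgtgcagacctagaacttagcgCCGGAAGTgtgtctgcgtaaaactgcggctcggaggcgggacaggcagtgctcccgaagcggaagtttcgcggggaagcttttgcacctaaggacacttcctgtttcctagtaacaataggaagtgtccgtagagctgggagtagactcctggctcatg
ZNF589 promoter (chr3:48240854-48241153): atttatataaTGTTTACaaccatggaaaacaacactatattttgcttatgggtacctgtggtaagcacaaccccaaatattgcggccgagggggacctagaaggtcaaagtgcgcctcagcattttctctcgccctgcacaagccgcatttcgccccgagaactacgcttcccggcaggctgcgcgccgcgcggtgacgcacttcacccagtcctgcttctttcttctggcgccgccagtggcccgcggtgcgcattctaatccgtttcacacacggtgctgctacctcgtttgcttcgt
ZNF331 promoter (chr19:53520764-53521063): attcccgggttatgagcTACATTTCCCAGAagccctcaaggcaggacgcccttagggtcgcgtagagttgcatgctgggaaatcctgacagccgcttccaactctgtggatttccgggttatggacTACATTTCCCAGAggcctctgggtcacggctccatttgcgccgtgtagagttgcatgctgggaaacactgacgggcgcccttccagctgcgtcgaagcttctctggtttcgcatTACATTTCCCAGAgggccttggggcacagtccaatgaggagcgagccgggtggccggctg
The ZNF48 window holds 4 GC boxes and the ZNF646 window a pair of ETS-type words in the same orientation. ZNF589 was the 1 member of 148 with the forkhead-type word. The ZNF331 window is the 1 member window with its word, which stands in 0.143% of all windows.

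Between cell types, 14 of 176 numbered ZNF genes changed, 7 higher and 7 lower in endoderm, at an adjusted p under 0.05 in limma. That is 7.95% of the members, beside 14.5% of all 14657 regions tested (6.90% higher and 7.60% lower), a smaller share than over regions at large. On chromosome 19, 2 members rose and 1 fell of 66, and on other chromosomes 5 rose and 6 fell of 110. Before adjustment, 46 members had p under 0.05 (background 34.2%). The endoderm and hESC ranges did not overlap for 51 members (28.98%; background 33.4%), with endoderm above in 27 and below in 24. All 176 members passed the filter on low values.

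**Figure D1:**
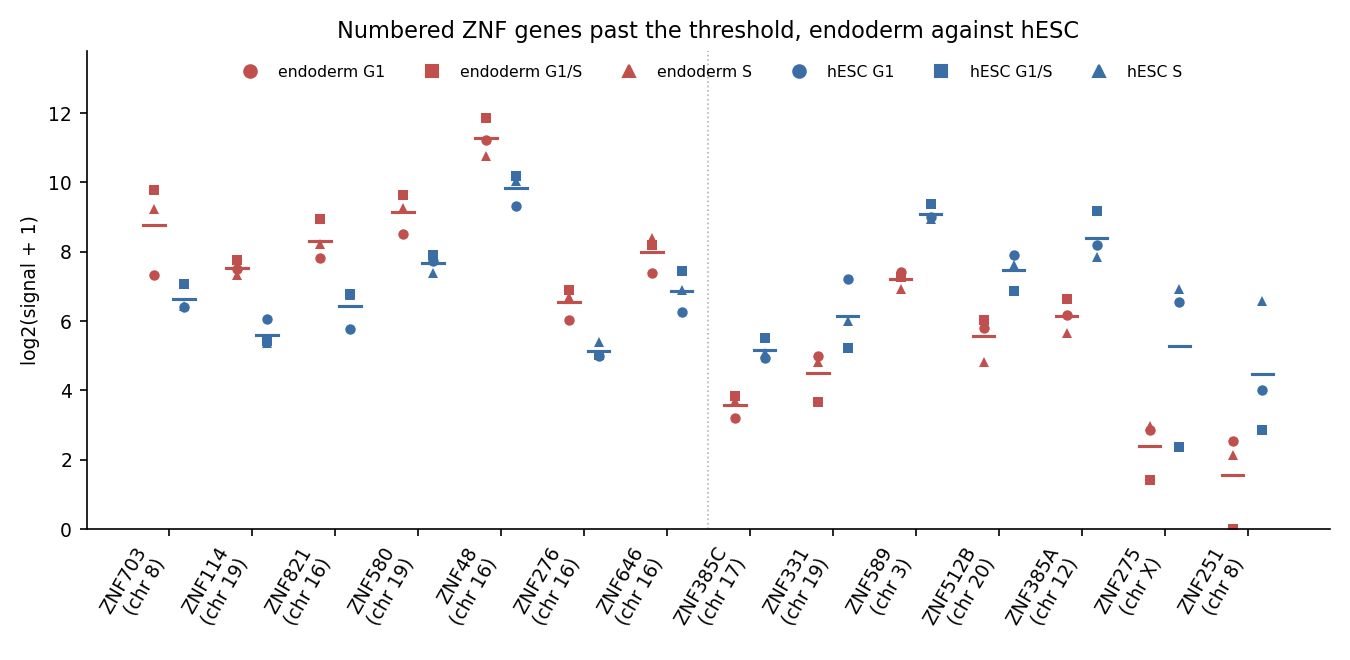
Log2(signal + 1) of the 14 numbered ZNF genes past the threshold, 1 point per library, with endoderm in red left of hESC in blue, the phase given by the symbol and short lines at the group means. The 7 genes left of the dotted line were higher in endoderm and the 7 right of it lower, and the groups overlap for ZNF646 and ZNF275 only.

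Among the members that rose, ZNF703 moved most. ZNF703, an atypical member that acts as a corepressor and is amplified in luminal breast cancer, had a signal of 160, 875 and 606 in endoderm at G1, G1/S and S, against 84.0, 134 and 85.1 in hESCs. The endoderm libraries were all above the hESC libraries, and endoderm G1 stood nearest to them. The log2 difference was 2.15 ± 0.41 (SE; limma, adjusted p = 0.019).

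Chromosome 19 gave 2 members that rose. ZNF114, a KRAB-like protein with 3 fingers, had a signal of 182, 215 and 161 in endoderm at G1, G1/S and S, against 65.8, 41.6 and 40.2 in hESCs, a log2 difference of 1.92 ± 0.33 (limma, adjusted p = 0.013). The lowest endoderm library was above the highest hESC library by more than the range within either group. ZNF580, a short protein with 3 fingers, had a signal of 365, 792 and 620 in endoderm and 210, 241 and 165 in hESCs (log2 difference 1.47 ± 0.30, limma, adjusted p = 0.023). Its neighbour ZNF581, whose region starts 2132 bases away on the same strand (chr19:60846364-60846612 for ZNF580, hg18), averaged 1056 ± 184 in endoderm and 1065 ± 148 in hESCs (SD, n = 3 each), a log2 difference of -0.02 ± 0.23. The means of ZNF581 differed by less than either SD.

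Chromosome 16, which holds 22 members, gave 4 of the 7 that rose and none that fell, beside 6.90% higher and 7.60% lower over all regions. It was not a planned set and is described here after its calls were seen. ZNF48, a protein with 12 fingers and the member with the highest mean signal, had 2376, 3717 and 1744 in endoderm at G1, G1/S and S, against 640, 1168 and 1045 in hESCs (region chr16:30318542-30318891, hg18). Every endoderm library was above every hESC library, and the log2 difference was 1.43 ± 0.28 (limma, adjusted p = 0.019). ZNF821 had 224, 489 and 298 in endoderm and 53.7, 108 and 106 in hESCs, with a log2 difference of 1.89 ± 0.29 (limma, adjusted p = 0.010). ZNF276, whose gene lies tail to tail with FANCA, had 64.2, 118 and 103 in endoderm and 31.0, 31.2 and 41.3 in hESCs (log2 difference 1.40 ± 0.35, limma, adjusted p = 0.040). ZNF646, with 30 fingers, had 168, 293 and 339 in endoderm and 75.7, 173 and 118 in hESCs, and its groups overlap, since endoderm G1 was below hESC G1/S. Its log2 difference was 1.14 ± 0.29 (limma, adjusted p = 0.044), the smallest of the 14 in size. ZNF276 and ZNF646 missed the threshold with edgeR on the recovered reads (adjusted p = 0.054 and 0.056).

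Of the 22 chromosome 16 members, 16 had a positive log2 difference. The median over the 22 was 0.49, against -0.04 over 496 other named genes of chromosome 16, of which 31 rose and 39 fell. Within G1, G1/S and S the median over the 22 was 0.03, 0.52 and 0.71, with 12, 15 and 18 positive. Over the 496 other genes it was -0.18, 0.008 and 0.002. The summed share of the 22 was 0.121%, 0.129% and 0.105% of all signal in endoderm at G1, G1/S and S, against 0.0692%, 0.0740% and 0.0754% in hESCs. Without ZNF48, a set taken after its values were seen, the other 21 summed to 0.0574%, 0.0589% and 0.0638% in endoderm and 0.0521%, 0.0472% and 0.0469% in hESCs, still without overlap. The 21 still hold ZNF821, ZNF276 and ZNF646, which were past the threshold, so this is not separate from their calls. Sums without these genes were not taken. Members next to each other moved alike in some pairs and in opposite directions in others. ZNF263 and ZNF75A, with starts 18513 bases apart, had the same sign, with log2 differences of 1.55 ± 0.56 and 1.30 ± 0.45. Neither passed the threshold (limma, adjusted p = 0.099 and 0.092). ZNF668 and ZNF646 start 22347 bases apart on opposite strands, and ZNF668 averaged 166 ± 10.8 in endoderm and 258 ± 29.9 in hESCs (SD, n = 3 each), a log2 difference of -0.63 ± 0.27, opposite in sign to ZNF646. ZNF469 had the lowest log2 difference of the 22 members, -1.11 ± 0.45 (limma, adjusted p = 0.132).

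**Figure D2:**
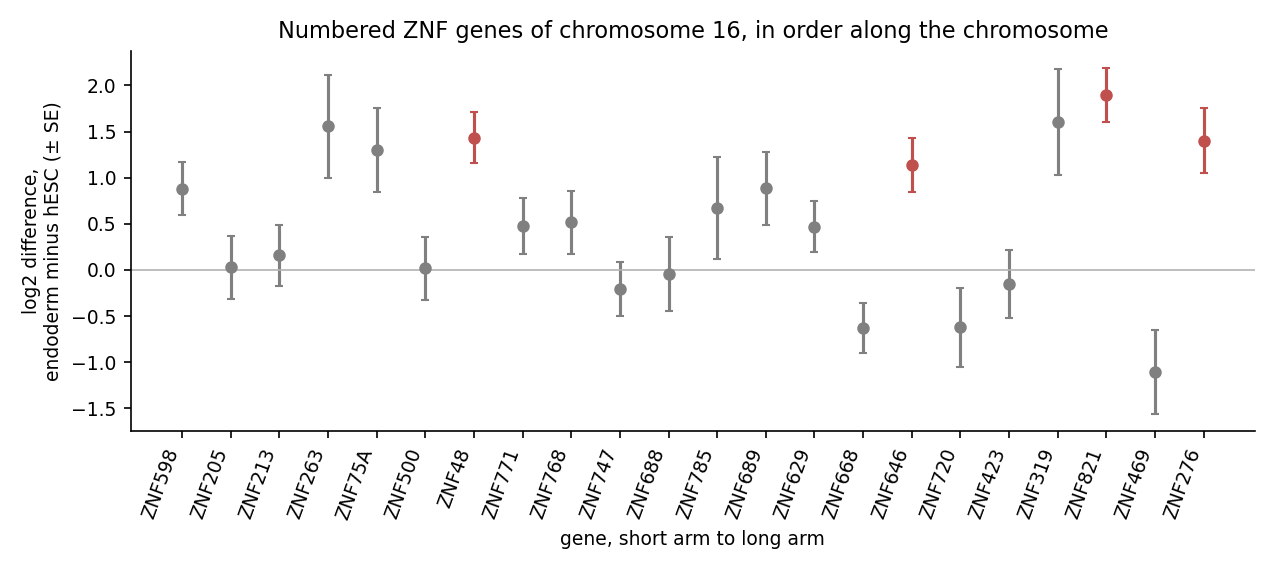
Log2 difference, endoderm minus hESC, of the 22 chromosome 16 members in order along the chromosome, with SE bars and the genes past the threshold in red. The 4 red genes lie between 1.14 and 1.89, and genes of opposite sign stand next to each other.

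Among the members that fell, ZNF385A and ZNF589 had the smallest adjusted p. ZNF385A (Hzf), a zinc finger protein that binds RNA and acts as a cofactor of p53, had 71.8, 98.2 and 49.6 in endoderm at G1, G1/S and S, against 291, 582 and 229 in hESCs. The log2 difference was -2.25 ± 0.29 (limma, adjusted p = 0.0053). The call held in 5 of 6 fits that each left out 1 library, though fits without either library of a phase share the same estimate. ZNF589, a KRAB protein first described in haematopoietic stem cells, had 169, 155 and 120 in endoderm and 509, 659 and 493 in hESCs (log2 difference -1.90 ± 0.27, limma, adjusted p = 0.0068). ZNF512B had 55.2, 64.9 and 27.4 in endoderm and 240, 116 and 195 in hESCs, with hESC G1/S nearest to endoderm, and a log2 difference of -1.90 ± 0.42 (limma, adjusted p = 0.028).

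ZNF331, a KRAB protein with 12 fingers from an imprinted locus, was the 1 chromosome 19 member that fell. Its signal was 31.1, 11.6 and 27.4 in endoderm at G1, G1/S and S, against 149, 36.4 and 62.6 in hESCs, lowest at G1/S in both cell types (log2 difference -1.65 ± 0.39, limma, adjusted p = 0.033). ZNF385C, a relative of ZNF385A, had 8.29, 13.3 and 11.98 in endoderm and 29.5, 44.8 and 33.1 in hESCs (log2 difference -1.60 ± 0.43, limma, adjusted p = 0.047). ZNF385C lies 8 bases from a region of NKIRAS2 on the opposite strand, its endoderm values rest on 12, 8 and 7 reads, and it lost the call in all 6 fits that left out a library and with edgeR and DESeq2.

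For the other members that fell, the endoderm values rest on few reads and the hESC libraries were far apart. ZNF275 had 6.21, 1.66 and 6.85 in endoderm at G1, G1/S and S, which is 9, 1 and 4 reads, against 93.1, 4.16 and 120.5 in hESCs. Its hESC G1/S value lies inside the endoderm range, so the groups overlap (log2 difference -2.87 ± 0.70, limma, adjusted p = 0.036). ZNF251, a KRAB-like protein, had 4.83, 0 and 3.42 in endoderm and 15.1, 6.25 and 93.9 in hESCs, so hESC S alone was high (log2 difference -2.92 ± 0.77, limma, adjusted p = 0.046). The 0 is a count of 0 reads in endoderm G1/S, which allows up to 4.99 signal at 3 reads, from counting error only.

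Several members with differences of like size did not pass, and those named here were chosen after their values were seen. ZNF641 had the lowest log2 difference of all members, -3.22 ± 1.28 (limma, adjusted p = 0.126), with 1.38, 0 and 0 in endoderm at G1, G1/S and S, against 29.5, 0 and 62.6 in hESCs, so that both G1/S libraries were at 0 reads. ZNF561, a KRAB-like gene of chromosome 19, had 2.76, 0 and 3.42 in endoderm and 21.9, 2.08 and 36.03 in hESCs, a log2 difference of -2.43 ± 0.78 (limma, adjusted p = 0.074). The hESC G1/S values of both genes lie inside their endoderm range. On the higher side, ZNF503, a relative of ZNF703, had 12.4, 43.3 and 44.5 in endoderm and 9.83, 4.16 and 5.32 in hESCs, a log2 difference of 2.09 ± 0.67 (limma, adjusted p = 0.075). Its endoderm libraries were above all hESC libraries, with endoderm G1 nearest to them, as for ZNF703. ZNF816A, a KRAB-like gene of chromosome 19, had 17.95, 19.96 and 29.1 in endoderm and 4.54, 7.29 and 2.95 in hESCs, again without overlap (log2 difference 2.01 ± 0.59, limma, adjusted p = 0.060).

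Most of the 14 calls were lost without a G1/S library. Without hESC G1/S 1 of the 14 genes kept its call and without endoderm G1/S 3 did, while the share of all regions called fell to 2.86% and 3.90%, against 14.5% with all libraries. Without hESC S 6 kept it (6.65% of all regions called), without endoderm S 7 (8.19%), and without either G1 library 11 (15.3% without hESC G1 and 15.99% without endoderm G1). Without both G1/S libraries ZNF275 alone passed (limma, adjusted p = 0.041), and 2.83% of all regions did. The losses of members therefore went with a loss of calls over all regions. The fit has a term for phase, so leaving out 1 library also takes its partner of the same phase out of the cell type difference. Leaving out either library of a phase therefore gives the same log2 difference, and the 6 fits are not 6 separate checks. Each of the 14 kept the sign of its log2 difference in these fits. For ZNF48 the adjusted p was 0.115 without both G1/S libraries, for ZNF385A 0.058 and for ZNF589 0.064.

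Sets of members by chromosome and KRAB-like pattern had median differences of both signs. The median log2 difference, endoderm minus hESC, was 0.29 over the 66 chromosome 19 members and 0.16 over the 110 others, against 0.02 over all regions. Among 770 other named genes of chromosome 19 it was -0.07, with 35 higher and 83 lower. By pattern it was 0.24 for chromosome 19 KRAB-like members (1 higher, 1 lower of 42), 0.29 for chromosome 19 members without the pattern (1 higher, 0 lower of 23), -0.28 for KRAB-like members elsewhere (0 higher, 2 lower of 27) and 0.26 for members elsewhere without the pattern (5 higher, 4 lower of 81). In that order 4.76%, 4.35%, 7.41% and 11.1% of the members were called, beside 14.5% of all regions. Of the 770 other named genes 15.3% were called. Within G1, G1/S and S the median was -0.08, 0.37 and 0.48 over chromosome 19 members. It was -0.05, 0.11 and 0.13 over the other members and -0.37, 0.04 and 0.07 over the 770 other named genes. In the order above, the medians by pattern were 0.13, 0.44, -0.44 and 0.25 after a correction for 3' end GC content within each library. Over 721 other named genes of chromosome 19 the corrected median was 0.07. The uncorrected gap between the chromosome 19 and other members, 0.13, lay between -0.01 and 0.26 when 1 library was left out. These are descriptions of sets and carry no test.

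**Figure D3:**
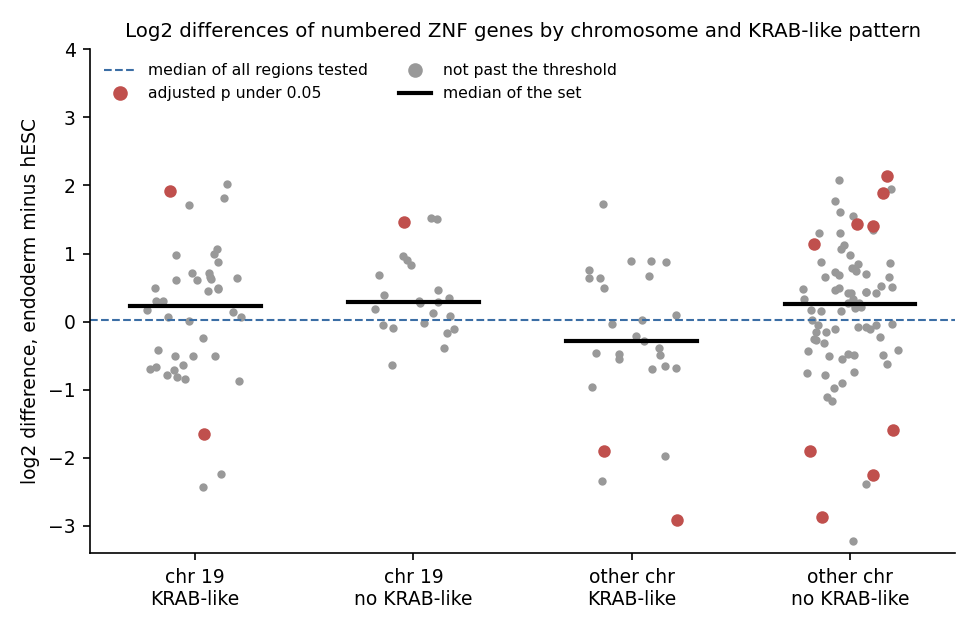
Log2 difference, endoderm minus hESC, of each member by chromosome and KRAB-like pattern, with members past the threshold in red, black bars at the set medians and a dashed line at the median of all regions tested (0.02). Set medians lie between -0.28 and 0.29, and single members between -3.22 and 2.15.

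The summed share of all members was nearly level, at 0.586%, 0.601% and 0.587% of all signal in endoderm at G1, G1/S and S, against 0.609%, 0.581% and 0.575% in hESCs. KRAB-like members outside chromosome 19 were the 1 set of the 4 without overlap of the cell types. They summed to 0.0529%, 0.0471% and 0.0515% in endoderm and 0.0781%, 0.0679% and 0.0793% in hESCs. Without ZNF589, a set taken after its values were seen, the sums were 0.0484%, 0.0441% and 0.0487% in endoderm and 0.0646%, 0.0528% and 0.0658% in hESCs, still without overlap. A sum weighs abundant genes most. In endoderm the highest value of any member of this set was 450, 616 and 645 of a summed signal of 1800, 2354 and 2087. In hESCs the highest value was 657, 823 and 750 of 2431, 2306 and 2412. Each highest value was taken within its own library, and they are not all of the same gene. How far the lack of overlap rests on such genes was not tested. KRAB-like members on chromosome 19 summed to 0.0430%, 0.0288% and 0.0395% in endoderm and 0.0479%, 0.0250% and 0.0449% in hESCs, lowest at G1/S in both.

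**Figure D4:**
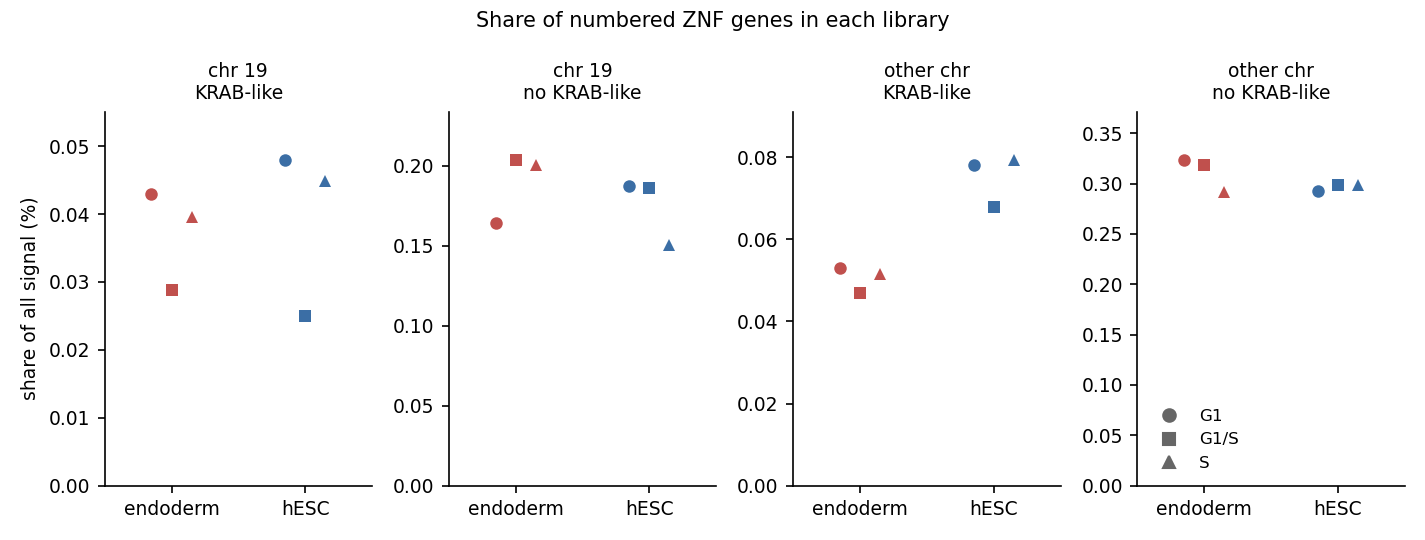
Share of all signal, in percent, for 4 sets of members, 1 point per library, endoderm left of hESC, each panel with its own axis from 0. KRAB-like members of other chromosomes lie at 0.0471% to 0.0529% in endoderm, all below the 0.0679% to 0.0793% of hESCs, and KRAB-like members of chromosome 19 are lowest at G1/S in both cell types.

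A list of 33 genes of KRAB repression, which holds the machinery that KRAB proteins recruit and also the KRAB protein ZFP57, had 29 measured, of which 0 rose and 2 fell, ZFP57 and the recruited subunit MTA3. Over all regions 6.90% rose and 7.60% fell. The list had 9 genes at an unadjusted p under 0.05 (background 34.2%), 2 past the threshold with edgeR (background 13.6%) and 5 with DESeq2 (background 18.97%), so it held no more calls than its size gives at the background shares. TRIM28, the common corepressor, averaged 4534 ± 1767 in endoderm and 5312 ± 1770 in hESCs (SD, n = 3 each), a log2 difference of -0.25 ± 0.34. SETDB1, its methyltransferase partner, averaged 189 ± 100.4 in endoderm and 73.8 ± 30.3 in hESCs, a log2 difference of 1.26 ± 0.43 that missed the threshold (limma, adjusted p = 0.089). ZFP57, a KRAB zinc finger protein that protects imprints, averaged 42.2 ± 21.9 in endoderm and 217 ± 49.4 in hESCs (log2 difference -2.43 ± 0.35, limma, adjusted p = 0.0076). MTA3, a NuRD subunit, averaged 12.3 ± 4.14 in endoderm and 56.2 ± 24.5 in hESCs (log2 difference -2.06 ± 0.40, limma, adjusted p = 0.019). The MTA3 call held in 2 of 6 fits that each left out 1 library, and the ZFP57 call in 6. Over the 29 genes the median was 0.43.

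Other zinc finger families, whose symbols do not begin with ZNF, moved in part. Of 8 KLF and SP genes 4 rose, KLF5, KLF6, KLF11 and SP5, and 0 fell, beside 6.90% higher and 7.60% lower over all regions. KLF11 lost its call in all 6 fits that left out a library, and edgeR called 3 of the 8. Of 16 ZBTB genes ZBTB22 rose and ZBTB3 fell, and ZBTB3 averaged 6.34 ± 0.715 in endoderm and 67.0 ± 18.9 in hESCs (log2 difference -3.18 ± 0.44, limma, adjusted p = 0.0065). ZSCAN10, a pluripotency factor and 1 of 5 ZSCAN and ZKSCAN genes, fell by 1.19 ± 0.26 on the log2 scale (limma, adjusted p = 0.025). ZIC2 rose by 1.78 ± 0.41 (limma, adjusted p = 0.030). The calls of ZBTB22 and ZIC2 each held in 2 of the 6 fits that left out a library, that of ZSCAN10 in 4 and that of ZBTB3 in 6.

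Of 24 numbered ZNF genes listed for a known role in pluripotent cells, repeats or the cell cycle, 14 were measured under the listed symbol. Of these 14, 0 changed by limma (background 14.5%), edgeR (background 13.6%) or DESeq2 (background 18.97%). At an unadjusted p under 0.05 in limma there were 3 of the 14 (background 34.2%), and their median log2 difference was 0.29. The list also holds ZNF206, an older symbol of ZSCAN10, which fell and is given above with the ZSCAN genes. ZNF398, which acts in human pluripotency downstream of TGF-beta signalling, had 79.4, 101 and 51.4 in endoderm at G1, G1/S and S, against 121, 159 and 159 in hESCs. Its groups do not overlap, and its log2 difference of -0.96 ± 0.34 missed the threshold (limma, adjusted p = 0.097). ZNF217, an oncogene of breast cancer, had 227, 64.9 and 83.9 in endoderm and 53.7, 35.4 and 83.9 in hESCs, with endoderm G1 alone high (log2 difference 0.97 ± 0.44, limma, adjusted p = 0.163). ZNF93, which silences LINE-1 elements, had 67.0, 43.3 and 77.0 in endoderm and 62.8, 26.0 and 34.3 in hESCs (log2 difference 0.65 ± 0.37, limma, adjusted p = 0.254). ZNF202, a SCAN and KRAB protein that represses lipid genes, had 3.45, 0 and 1.71 in endoderm and 6.81, 2.08 and 70.3 in hESCs, so hESC S alone was high, as for ZNF251 (log2 difference -2.38 ± 1.01, limma, adjusted p = 0.141). ZNF281, ZNF423, ZNF462, ZNF263, ZNF274, ZNF207, ZNF259, ZNF330, ZNF335 and ZNF451 also missed the threshold, with log2 differences between -0.47 for ZNF330 and 1.55 for ZNF263.

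The most abundant members other than ZNF48 did not pass the threshold between cell types. On chromosome 19 they were ZNF787, ZNF581, ZNF358, ZNF444 and ZNF579, and ZNF787 averaged 1958 ± 1003 in endoderm and 1485 ± 464 in hESCs (SD, n = 3 each). Their log2 differences lay between -0.17 for ZNF444 and 0.46 for ZNF358, none past the threshold. On other chromosomes ZNF593, a factor of large ribosomal subunit assembly, averaged 949 ± 287 in endoderm and 985 ± 161 in hESCs. With ZNF511, ZNF219 and ZNF672, log2 differences lay between -0.42 for ZNF672 and -0.09 for ZNF593. Among members with more than 1 region, ZNF207, ZNF320, ZNF638, ZNF738 and ZNF827, no region passed the threshold. ZNF207 (BuGZ), which loads BUB3 at kinetochores, differed by 0.79 ± 0.46 at its higher region and 0.99 ± 0.61 at a region 361 bases away.

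Neighbouring members had the same direction about as often as not. Of 28 neighbouring pairs within 100000 bases on chromosome 19, 15 had the same sign of the cell type difference, of 19 such pairs on other chromosomes 9 did, and of 107 pairs farther apart 55 did. Next to each other on chromosome 19, ZNF561 differed by -2.43 ± 0.78 and ZNF562 by 0.72, and ZNF321 by 0.47 and ZNF816A by 2.01 ± 0.59. Another region lay within 1000 bases on the opposite strand for 13 members, ZNF385C and ZNF124 among them, and how reads near such pairs were assigned is not given in the sources used here. Related KRAB genes share sequence, and reads that match several of them may have been left out or split, which these values do not show.

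No numbered ZNF gene passed the threshold between phases, and neither did any other region (0 of 14657, 0.00%, in each of 3 phase comparisons by limma). At an unadjusted p under 0.05 there were 21 members for G1/S minus G1 (background 13.7%), 3 for S minus G1 (background 3.39%) and 17 for S minus G1/S (background 10.6%). With edgeR 0 members passed, and with DESeq2 1 member passed for G1/S minus G1 (background 1.24%), 0 for S minus G1 (background 0.00682%) and 2 for S minus G1/S (background 1.32%). The comparisons share libraries, and those with G1/S rest on the same pair of G1/S libraries.

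The members with the smallest p for G1/S minus G1 were ZNF587, ZNF331, ZNF564, ZNF828 and ZNF275, all with a lower signal at G1/S. ZNF828 (CHAMP1), a protein of kinetochore attachment, had 6.65 in G1/S, against 24.9 in G1, in endoderm and 3.12 in G1/S, against 18.2 in G1, in hESCs, with S at 30.8 in endoderm and 31.3 in hESCs. The G1/S value of ZNF828 was the lowest in both cell types and rests on 4 reads in endoderm and 3 in hESCs. ZNF587, a KRAB protein of chromosome 19, had 8.32 in G1/S, against 26.2 in G1, in endoderm and 10.4 in G1/S, against 64.3 in G1, in hESCs (log2 difference -2.03 ± 0.57, limma, adjusted p = 0.362). ZNF564, a KRAB-like gene, had 1.66 in G1/S, against 6.21 in G1, in endoderm and 4.16 in G1/S, against 66.6 in G1, in hESCs. Between S and G1/S, ZNF622, a maturation factor of the large ribosomal subunit, had 104 in S, against 38.3 in G1/S, in endoderm and 314 in S, against 20.8 in G1/S, in hESCs (log2 difference 2.64 ± 0.59, limma, adjusted p = 0.463). ZNF385A had the opposite sign, with 49.6 in S, against 98.2 in G1/S, in endoderm and 229 in S, against 582 in G1/S, in hESCs (log2 difference -1.16 ± 0.35). For S minus G1 the members with the smallest p were ZNF775, ZNF124, ZNF664, ZNF646 and ZNF423, with log2 differences between -1.61 for ZNF664 and 1.86 for ZNF124. The ZNF124 value came from hESCs, where S had 70.9 and G1 had 6.05, beside 80.4 in S and 62.1 in G1 in endoderm.

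On chromosome 19, KRAB-like members and the others had medians of opposite sign at G1/S. The median log2 difference, G1/S minus G1, was -0.39 for chromosome 19 KRAB-like members (12 of 42 positive) and 0.38 for chromosome 19 members without the pattern (18 of 23 positive), against 0.07 over all regions and 0.43 over other named genes of chromosome 19. KRAB-like members of other chromosomes had a median of 0.07 (14 of 27 positive). In chromosome 19 KRAB-like members it was -0.44 within endoderm and -0.51 within hESCs. The GC content of the 3' end moved with this. Over 175 members the rank correlation of GC content with the G1/S minus G1 difference was 0.39, and that of mean signal over 176 members was 0.49, as descriptions across genes that share the same libraries. Over 9862 named regions, GC content correlated by rank with the deviation from the mean of the 6 libraries at 0.271 in endoderm G1/S and 0.419 in hESC G1/S, and at -0.399 to -0.0139 in the other 4. After a correction for GC content within each library the medians were -0.05 for chromosome 19 KRAB-like members and -0.06 for chromosome 19 members without the pattern, 0.30 for KRAB-like members of other chromosomes, and 0.00 for all KRAB-like members and -0.04 for all others. When libraries were centred on their medians, the median of all regions for G1/S minus G1 was 0.28 in place of 0.07 and that of all chromosome 19 members 0.08 in place of -0.14, a shift in sign of the members' median that is common to all regions. Under either scaling the chromosome 19 members lay below the median of all regions.

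**Figure D5:**
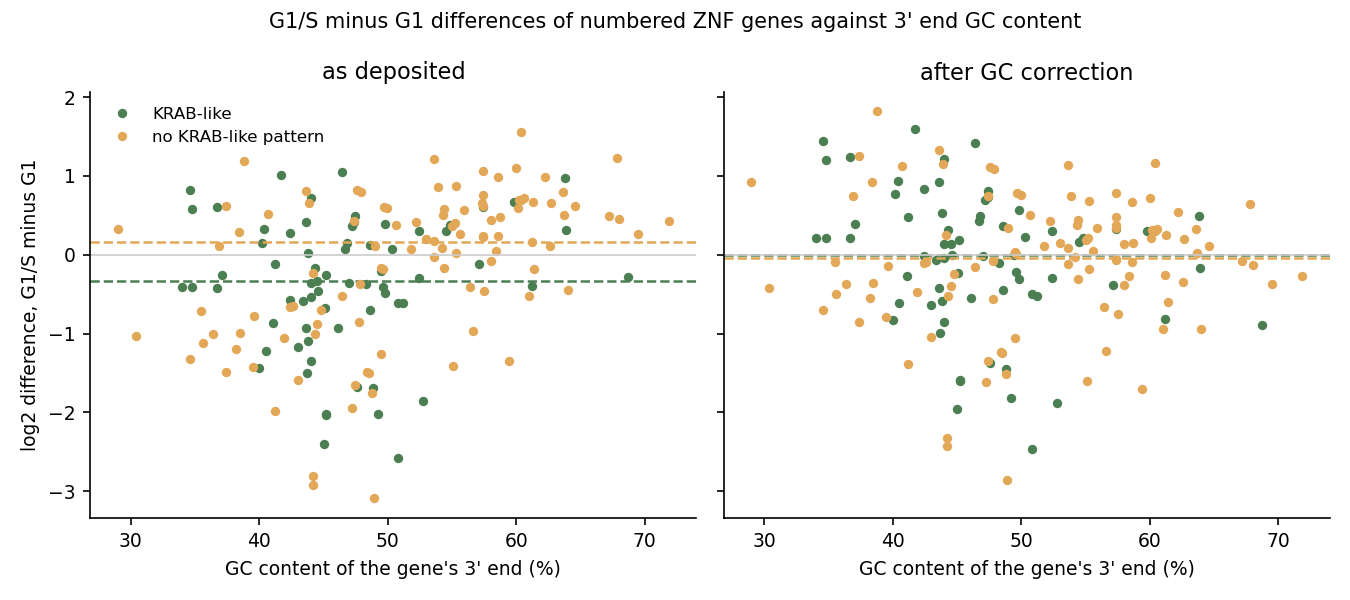
Log2 difference, G1/S minus G1, of each member against the GC content of its last 500 transcript bases in percent, KRAB-like in green and members without the pattern in orange, before (left) and after (right) correction for GC content, with dashed lines at the medians. The medians, over members of all chromosomes, lie at -0.33 and 0.17 before the correction and at 0.00 and -0.04 after it.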

How the data were processed

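The 6 libraries are 3' RNA-seq of H9 hESCs and of endoderm derived from them, made with 15 cycles of PCR, per the labels' protocols. Tools listed in the submitters' processing notes, with no role given, are Bowtie 0.12.7, CASAVA 1.5 and DESeq 1.5.24, and the builds are hg18 and NCBI36. The authors deposited a signal value per region and library. At a tolerance of 1e-06, 100% of the values are whole reads divided by 1 constant per library, so reads were recovered. The design assumed another scale, so log2(signal + 1) was used here. limma 3.58.1 in R 4.3.3 was fitted to cell type and phase with an intensity trend over 14657 regions (log2 at least 1 in at least 3 libraries; 29 left out), with 2 residual and 5.46 prior degrees of freedom, a threshold of 0.05 after Benjamini-Hochberg adjustment, and SE from the fit. edgeR 4.0.16 and DESeq2 1.42.0 on recovered reads, pseudocounts, filters, scaling, a GC correction (9862 named regions, 95.2% of those with a name) and leaving out libraries were alternatives. The fitting code was tested on simulated data.

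The text names members past the threshold, the 5 most abundant on chromosome 19 and elsewhere, the 5 with the smallest p per phase comparison, listed known-role genes and members with several regions, and a few further neighbours chosen after their values were seen. Members and lists were chosen with earlier results of these data known. Of the symbols, 169 were current, 6 were older and 1 (ZNF720) matched none. Strand was read from the order of start and end, which gave the annotated strand for 169 of 170 matched members. Fingers were counted as C-x(2 to 4)-C-x12-H-x(3 to 5)-H in translated GENCODE v29 coding sequences. PCR reads without molecular identifiers are not independent molecules, so read counts cover counting error only.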

Additional observations from a re-analysis of the deposited data

How the results depend on the processing

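Of 14 members past the threshold (14.5% of all regions), the number was 14 with edgeR (13.6%), 19 with DESeq2 (18.97%; 11 members higher), 14 and 13 with pseudocounts of 0.5 and 4 (13.6% and 14.7%), 14 with no filter (14.4%), 10 after quantile normalisation (13.5%), 15 after median centring (15.5%), 14 with regions summed (14.5%) and 7 without the intensity trend (10.002%; 3 higher, 4 lower). A stricter filter left 123 members, of which 12 passed (17.7% of regions; 4 lower). Over 9862 named regions with a GC value, 175 members were tested, and 20 passed after GC correction (17.7%) and 17 without it (16.5%), the last chosen after seeing the data. No phase was repeated and the labels give no replicate numbers, so the phase term is the replicate block, and without it 11 members passed (12.5% of regions; 7 higher, 4 lower). Leaving out 1 library in turn gave 1 to 20 members (2.86% to 15.99% of regions), 0 to 15 higher and 1 to 5 lower, and without both G1/S libraries there were 1, 0 and 1 (2.83%). For G1/S minus G1 this gave 0 to 3 members and for S minus G1/S 0 to 1, and DESeq2 gave 1 and 2.

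For chromosome 19 minus other members, median of G1/S minus G1, the difference was -0.25, and -0.21 with edgeR, -0.19 with DESeq2, -0.20 with pseudocount 4, -0.12 with the stricter filter, -0.12 after quantile normalisation, -0.10 after GC correction, -0.23 with regions summed and -0.25 to -0.00535 without 1 library. For KRAB-like minus other members, median of G1/S minus G1, it was -0.50, and -0.45 with pseudocount 4, -0.27 after quantile normalisation, 0.043 after GC correction, -0.46 with regions summed and -0.50 to -0.28 without 1 library. The cause of these shifts was not tested. Depth limits members under 20 signal, where 3 reads are 1.77 to 5.13 signal.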
